A study of Mus musculus with 36 samples.

Results

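The lungs of NNK-treated A/J mice were followed over 4 times after exposure, and the changes between those times are described here. They are the 8 of 36 arrays in the series labelled as A/J and NNK-treated, with 2 at each of weeks 3, 6, 9 and 12. These arrays were chosen by their labels, with earlier results of these data known. The A/J mice had received 4 weekly injections of 100 mg/kg NNK (4-(methylnitrosamino)-1-(3-pyridyl)-1-butanone), and the labels do not say whether the weeks were counted from the first or the last injection. They were set beside 8 arrays of untreated A/J lungs from the same weeks. The other A/J arrays were 2 of untreated lungs at week 0. The remaining 18 arrays were of C3H lungs, 8 of them NNK-treated at the same dose and weeks and 10 untreated. The labels give no age, sex or hour of collection. They also leave unsaid if both arrays of a week were of different animals, so every p-value here rests on a spread between samples that may be technical. Total RNA of whole lung was hybridized to Affymetrix gene arrays.

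NNK is a nitrosamine of tobacco that enzymes of the lung turn into products that alkylate DNA. A/J is an inbred strain that readily develops lung adenomas after such carcinogens, whereas C3H is more resistant, and the submitters describe the lungs as taken before mature tumours formed. The levels of some genes also depend on the time of day, and its part in the changes described here was not tested. In the circadian clock, Arntl and Clock drive the Per, Cry and Nr1d genes and the transcription factors Dbp, Tef and Hlf, whose products in turn restrain or pass on the rhythm.

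All levels below are log2(intensity + 16) after quantile normalization, and the 2 values of a week are its arrays 1 and 2. A trend is the log2 change over the 9 weeks between week 3 and week 12, taken from a linear contrast over the 4 weekly means, given ± its standard error. A gene is said to have risen or fallen where the trend had an adjusted p under 0.05 by limma over 14953 genes. A gene was set aside where its trend in untreated A/J had the same sign and was at least 50% as large or had an unadjusted p under 0.05.

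The 8 arrays had median intensities between 297 and 328. Their replicates correlated with r between 0.9865 at week 6 and 0.994 at week 9 across genes. The lung genes Sftpc and Scgb1a1, which encode a surfactant protein and a club cell secretory protein, lay at 13.95 to 14.01 and at 13.67 to 13.88 in all 8 arrays. Each NNK array lay outside the other 7 in the mean of 8 to 16 of 45 gene lists, array 1 of week 6 in 12. By more than the whole range of the other 7, array 1 of week 9 and array 1 of week 12 did so in 1 list each. Array 1 of NNK week 6 did so in 4 lists, and the remaining arrays in 0. Its mean over 15 neutrophil genes was 9.79, against 8.64 to 8.97 in the other 7 arrays, and its mean over 28 collagen and matrix genes was 11.02, against 10.69 to 10.73. Its mean over 23 B and plasma cell genes was 8.46, against 9.16 to 9.43, and over 2 erythroid genes 11.89, against 9.32 to 10.17. The 32 proliferation genes (9.51, against 8.47 to 9.01) and 12 acute phase genes (10.38, against 9.85 to 10.18) were also highest in it. Without this array, 83 genes had a trend and 27 of these were not set aside, against 97 and 27 with it. Both untreated week 6 arrays and array 2 of untreated week 0 held genes of cornified skin (list means of 10.56, 11.00 and 9.72, against 8.01 to 8.34 in the other 7 untreated and 8.07 to 8.21 in the 8 NNK arrays), and array 2 of untreated week 3 was high in mesothelial genes (10.70, against 9.25 to 10.24 in the NNK arrays).

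In NNK-treated A/J lungs, 97 of 14953 genes changed over the weeks (0.649%). The clock genes led, with Per1, Hlf, Bhlhe41 and Dbp rising and Arntl falling, and untreated A/J lungs showed the same change. Apart from these, stress-induced transcription factors (Atf3, Fosb), genes of fatty acid use and fasting (Pdk4, Cpt1a, Angptl4), interferon-induced genes (Oas2, Cxcl9), the airway secretory gene Scgb3a1 and the non-coding RNA Meg3 rose. Of the 97 genes, 76 rose (0.508% of genes tested) and 21 fell (0.140%). The changes were at least 1 log2 unit in 22 genes, and the median size was 0.65. At an unadjusted p under 0.05 there were 1666 genes (11.1%), 924 of them higher over the weeks (6.18%) and 742 lower (4.96%). In untreated A/J lungs, 92 genes had a trend (0.615%). The trends of the NNK-treated and untreated lungs, which share no array, correlated with r = 0.456 across all genes, which are not independent replicates.

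By the rule above, 70 of the 97 genes were set aside, 54 rises and 16 falls. This left 22 rises (0.147%) and 5 falls (0.0334%), 27 genes in all (0.181%). Of all 14953 genes, 51.7% met the rule for setting aside. Some genes near the rule's limit were named for that reason after their values were seen. Klf2 was set aside with trends of 0.98 in NNK-treated and 0.27 in untreated lungs (unadjusted p = 0.0464 in untreated lungs by limma). Pcsk6 was set aside with 0.48 and 0.20 (unadjusted p = 0.0471). Not set aside were Tcim with 0.70 and 0.24 (unadjusted p = 0.0943) and Cpt1a with 0.56 and 0.15 (unadjusted p = 0.0893). In the direct test of NNK minus untreated trends by limma, 2 genes passed (0.0134%), the skin keratins Krt1 and Krt10, and 537 had an unadjusted p under 0.05 (3.59%). Both keratins were high in the untreated week 6 arrays and nearly level in NNK-treated lungs. The 27 genes not set aside had 0 members with an adjusted p under 0.05 in this test. The lowest was that of Angptl4 (difference 1.49, adjusted p = 0.155 by limma), and Meg3, Oas2 and Upk3a each had an adjusted p of 0.303. For the genes described below as not set aside, a trend was therefore found in NNK-treated lungs, and a difference from the untreated trend was not.

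**Figure D1:**
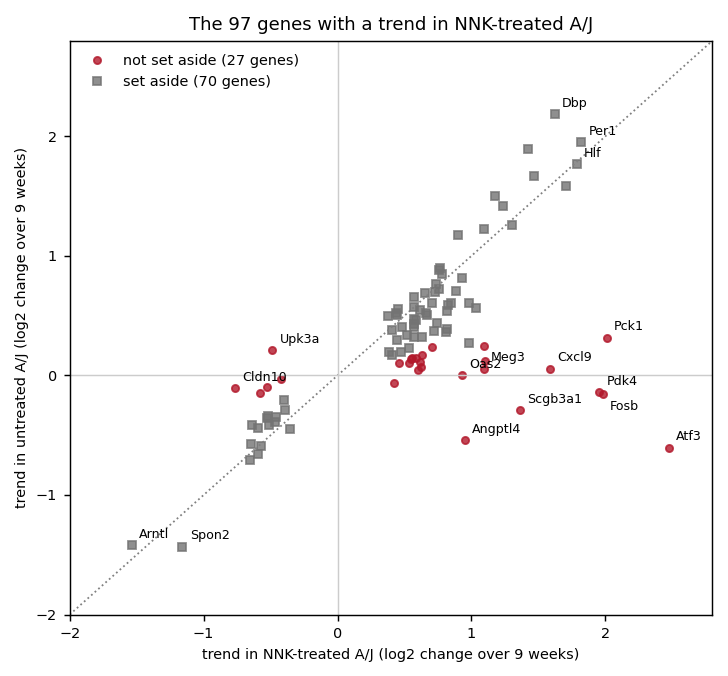
Trend in NNK-treated A/J (x axis) against trend in untreated A/J (y axis), both as log2 change over 9 weeks, for the 97 genes with a trend in NNK-treated lungs. The dotted line marks equal trends. Of the 70 genes set aside (grey squares), 64 have an untreated trend at least 50% as large and 6 were set aside by its unadjusted p alone, and the 27 others (red circles) lie nearer to or across 0 on the y axis, as the rule that chose them requires.

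In 82 of the 97 genes all 6 arrays of weeks 6 to 12 lay on one side of both week 3 arrays, 62 above and 20 below, as they did in 14.9% of all genes tested. The genes were chosen for a trend on these same arrays, which favours such an order, so the count is a description. It was 64 of the 70 genes set aside and 18 of the 27 others. With weeks 6 to 12 alone, limma called 2 genes in NNK-treated lungs (0.0134%), Meg3 higher and the Myb family gene Mybl1 lower. At an unadjusted p under 0.05 there were 1920 genes (12.8%) over these weeks in NNK-treated lungs, against 824 (5.51%) in untreated lungs, and this was no fewer than the 1666 (11.1%) over weeks 3 to 12.

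Single arrays moved the counts. Leaving out array 1 or array 2 of NNK week 3 left 24 or 32 genes with a trend, and 4 or 7 of these not set aside. The count of genes with a trend was also more than 1.5 times lower without NNK week 9 array 2 (48), week 12 array 1 (52) or week 12 array 2 (38), and was 198 without either untreated week 3 array. The count of genes not set aside was also more than 1.5 times lower without NNK week 9 array 2 (8 genes), without NNK week 12 array 2 (15) and without either untreated week 0 array (17 each). It was 93 without array 1 and 68 without array 2 of untreated week 3.

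The clock genes are shown first because their output and repressor genes had the highest median trend of the 45 lists. Of 13 output and repressor genes of the clock tested, 10 rose in NNK-treated A/J lungs and 0 fell, against 0.508% of all genes that rose. The median trend was 1.18, against 0.01 over all genes, and all 10 were set aside, since the untreated median was 1.26. Because E-boxes are the sites through which Arntl and Clock are known to act, 300-base promoter windows (250 bases before and 50 after the gene start) were searched for the letters CACGTG, which read the same on both strands. They were present in 5 of the 11 members with a window (45.5%), against 10.8% of 11825 genes. A match is a description of the letters in this window and not a binding site. The promoters of Per1 with 1 match and Ciart with 3, from RefSeq on GRCm38.p6, are printed 5′ to 3′ on the gene's strand with the E-box letters in capitals.
Per1, chr11:69098699-69098998, plus strand: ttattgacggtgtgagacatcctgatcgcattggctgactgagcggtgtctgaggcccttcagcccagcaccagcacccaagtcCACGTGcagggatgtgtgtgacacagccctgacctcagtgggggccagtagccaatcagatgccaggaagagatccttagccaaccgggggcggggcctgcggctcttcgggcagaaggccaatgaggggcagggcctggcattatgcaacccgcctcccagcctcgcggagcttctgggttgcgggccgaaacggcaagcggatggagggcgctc
Ciart, chr3:95882179-95882478, minus strand: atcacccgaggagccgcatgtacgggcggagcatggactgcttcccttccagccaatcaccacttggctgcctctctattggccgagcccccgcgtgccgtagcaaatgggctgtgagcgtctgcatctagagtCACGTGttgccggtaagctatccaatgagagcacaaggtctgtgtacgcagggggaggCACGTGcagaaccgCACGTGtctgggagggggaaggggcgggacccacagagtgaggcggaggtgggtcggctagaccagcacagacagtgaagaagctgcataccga

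Hlf, a transcription factor of the clock's output arm, had levels of 8.49 and 8.51 at NNK week 3, 9.92 and 10.19 at week 6, 10.33 and 10.47 at week 9, and 10.31 and 10.43 at week 12. Untreated A/J lungs had 8.46 and 8.46 at week 3, 10.05 and 10.28 at week 6, 10.24 and 10.16 at week 9, and 10.37 and 10.45 at week 12. The week 3 arrays were low in both groups, every later array was more than 1 unit higher, and the groups overlapped. The trend of Hlf was 1.79 ± 0.10 in NNK-treated and 1.77 in untreated lungs (NNK trend adjusted p = 1.94e-06 by limma). Untreated lungs at week 0, with 9.41 and 9.19, lay between.

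Dbp, which belongs to the same family of factors, had 9.96 and 10.14 at NNK week 3 and 11.49 to 11.93 in the 6 later NNK arrays. Its levels in untreated lungs were 9.37 and 9.49 at week 3 and 11.52 to 12.04 later. The period gene Per1, a repressor of the clock, had 9.31 and 9.21 at NNK week 3 and 10.91 to 11.62 later, against 8.94 and 9.44 and 11.06 to 11.68 in untreated lungs. Both genes were higher in every later array than in either week 3 array of the same group, and the groups overlapped at the later weeks. Their NNK trends were 1.62 ± 0.10 for Dbp and 1.82 ± 0.17 for Per1 (adjusted p = 2.77e-06 and 0.000254 by limma), beside untreated trends of 2.19 and 1.96.

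The other members that rose were Bhlhe41 (1.71), Per2 (1.43), Ciart (1.31), Per3 (1.18), Bhlhe40 (0.93), Tef (0.90) and Nr1d2 (0.76). Cry1, Cry2 and Nr1d1 had NNK trends of 0.38, 0.45 and 0.35 and did not pass (adjusted p = 0.103, 0.0554 and 0.142 by limma). Of 4 further clock genes tested, Arntl, Clock, Rora and Nfil3, 2 fell, against 0.140% of all genes. Arntl, the partner of Clock, had 9.72 and 9.57 at NNK week 3 and 7.86 to 7.99 in all 6 later arrays, against 9.19 and 9.96 and 7.65 to 8.41 in untreated lungs. Its NNK trend was -1.54 ± 0.19 (adjusted p = 0.00203 by limma). Clock fell by 0.36 (adjusted p = 0.0462), a call lost in 8 of 16 alternative settings of processing, test or arrays. Rora and Nfil3 did not pass. With weeks 6 to 12 alone, the median over the 13 output and repressor genes was 0.15 in NNK-treated and 0.23 in untreated lungs, scaled to 9 weeks.

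**Figure D2:**
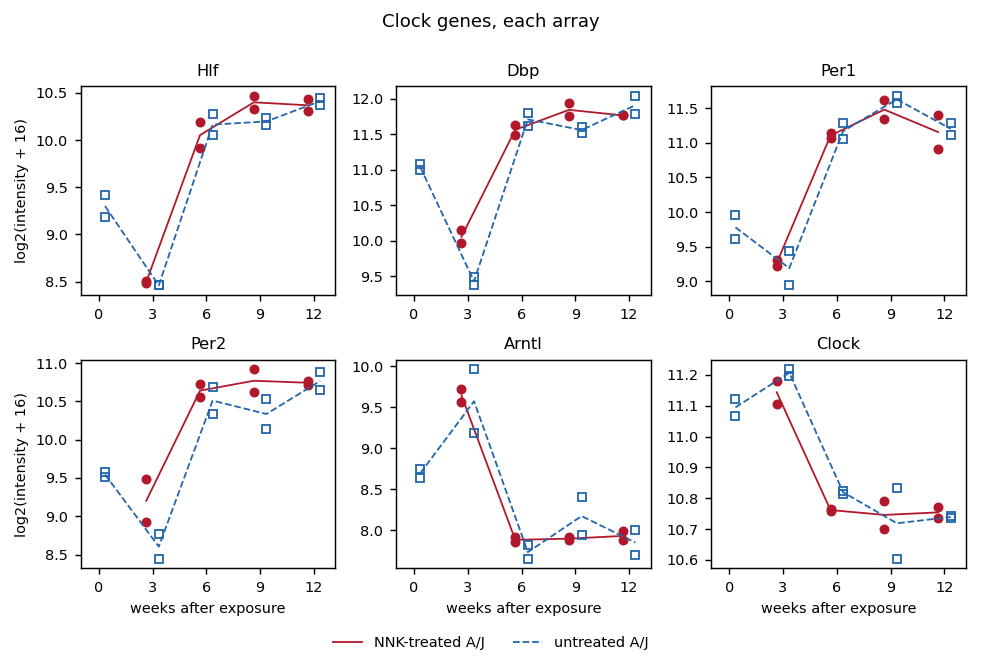
Levels of 6 clock genes, as log2(intensity + 16), against weeks after exposure. Each symbol is 1 array, lines join the weekly means, red circles and solid lines are NNK-treated A/J, and blue squares and dashed lines are untreated A/J, offset sideways for clarity. Hlf, Dbp, Per1 and Per2 are low and Arntl and Clock high at week 3 in both groups, and the later weeks are nearly level.

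Some genes that glucocorticoids are known to induce also rose. Of 15 tested, 7 rose, against 0.508% of all genes, and all 15 had a trend above 0, against 52.9% of all genes. The median was 0.48 in NNK-treated and 0.19 in untreated lungs. Per1 is one of them and also a clock gene. Zbtb16, a zinc finger repressor, rose by 1.47 (adjusted p = 0.00966 by limma), with 8.97 and 9.46 at NNK week 3 and 10.55 to 11.11 later, and Tsc22d3, the glucocorticoid-induced leucine zipper, rose by 0.78 (adjusted p = 0.0105). Their untreated trends were 1.67 and 0.85. Of the 7, Pdk4 and Angptl4 were not set aside. Other genes set aside included falls of Spon2, a matrix protein (-1.16, against -1.43 in untreated lungs), Tnfrsf12a, the receptor of TWEAK (-0.65, against -0.57), and Cass4 (-0.65, against -0.70).

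Among the genes not set aside, those of fatty acid use and fasting gave more members than any other list. Of 12 targets of PPAR receptors and fasting tested, 3 rose, Pdk4, Cpt1a and Angptl4, against 0.508% of all genes, and 9 had an unadjusted p under 0.05, against 6.18% of all genes. The median trend was 0.43 in NNK-treated and 0.04 in untreated lungs. In whole lung, a change in the number of cells of a type and a change in RNA per cell cannot be told apart. Cpt1a, the gate of long-chain fatty acids into mitochondria, had 11.12 and 11.16 at NNK week 3, 11.89 and 11.74 at week 6, 11.75 and 11.79 at week 9, and 11.76 and 11.79 at week 12. Untreated lungs had 11.79 and 11.76, 11.75 and 11.85, 11.81 and 11.98, and 11.90 and 11.91 at these weeks. The NNK week 3 arrays lay below every other A/J array, and from week 6 on the groups lay close together. The trend was 0.56 ± 0.08 (adjusted p = 0.0055 by limma), beside 0.15 in untreated lungs.

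Angptl4, a secreted inhibitor of lipoprotein lipase, had 8.30 and 8.27 at NNK week 3, 9.82 and 9.32 at week 6, 9.03 and 9.07 at week 9, and 9.57 and 9.46 at week 12. In untreated lungs it had 9.78 and 9.97 at week 3, 9.72 and 9.25 at week 6, 9.14 and 9.45 at week 9, and 9.28 and 9.41 at week 12. It too was lowest at NNK week 3, below all 10 untreated arrays. Its trend was 0.95 ± 0.17 in NNK-treated lungs (adjusted p = 0.0245 by limma), beside -0.54 in untreated lungs. With weeks 6 to 12 alone the NNK trends of Cpt1a and Angptl4 were -0.059 and -0.085.

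Pdk4, a kinase that turns off pyruvate oxidation in fasting, had 8.66 and 8.75 at NNK week 3, 9.95 and 9.30 at week 6, 9.03 and 9.57 at week 9, and 11.30 and 10.67 at week 12. Untreated lungs had 9.83 and 10.04, 10.64 and 9.59, 9.06 and 9.28, and 10.44 and 9.75 at these weeks. The NNK arrays lay below every untreated array at week 3 and above every untreated array at week 12. The trend was 1.95 ± 0.31 (adjusted p = 0.0108 by limma), beside -0.14 in untreated lungs. Pparg, the nuclear receptor of fat storage and alveolar macrophages, rose by 0.46 (adjusted p = 0.0434), a call lost in 9 of 16 alternative settings. Slc25a20, the mitochondrial acylcarnitine carrier, rose by 0.61 (adjusted p = 0.0254). These last 2 genes, with Slc27a1 (0.63), Coq8a (0.62), Klf11 (0.58) and Hilpda (0.55), were among the 10 rises outside the 12 largest and were picked out after their values were seen.

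Markers of adipose tissue had their highest mean at NNK week 12, whereas Cpt1a and Angptl4 had theirs at week 6. Of 11 tested, 1 rose, Pck1, a key enzyme of glycerol and glucose synthesis, but all 11 had a trend above 0 and 10 had an unadjusted p under 0.05, against 6.18% of all genes. The median was 1.03 in NNK-treated and 0.17 in untreated lungs. Pck1 had 7.52 and 7.46 at NNK week 3, 8.25 and 7.70 at week 6, 7.43 and 7.83 at week 9, and 10.55 and 9.13 at week 12, against 7.23 to 8.90 in the untreated arrays of these weeks. Its trend was 2.01 ± 0.39 (adjusted p = 0.036 by limma) and rested on week 12, where both NNK arrays lay above all untreated arrays. Without NNK week 12 array 1 the trend was 1.37. The call of Pck1 was lost in 10 of the 18 fits that each left out 1 array and in 7 of 15 alternative settings.

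The mean over the 11 adipose genes was 11.03 and 10.56 at NNK week 12 and 8.58 to 9.55 in the 6 earlier NNK arrays. In untreated lungs it was 10.40 and 9.60 at week 12, 10.29 and 9.32 at week 6, and between 8.71 and 9.70 in the 6 other arrays. Adipoq, the defining adipocyte hormone, had 10.41 and 9.76 at NNK week 12 and 7.10 to 8.39 in the earlier NNK arrays, against 9.76 and 8.50 at untreated week 12 and 9.74 in array 1 of untreated week 6. High adipose markers were therefore present in arrays of both groups, and highest at NNK week 12. Of the 22 rises not set aside, 14 had their highest weekly mean at NNK week 12, against 25.3% of all genes. Among the 14 were Pdk4, Pck1, Pparg, Slc25a20, Slc27a1 and Coq8a. The genes were chosen for a rising trend, which favours a maximum at the last week, so the count is a description. The adipose list shares 2 genes, Cidec and Fabp4, with the list of PPAR and fasting targets. The part of adipose tissue in these trends, and in those of Cpt1a and Angptl4, was not tested.

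Immediate early genes, which cells switch on within minutes of a stimulus, had positive trends in NNK-treated lungs. The mean over the 16 genes tested was 9.84 and 9.40 at NNK week 3, 9.62 and 10.17 at week 6, 10.90 and 11.13 at week 9, and 10.14 and 10.93 at week 12. Untreated lungs had 10.12 and 10.60, 9.79 and 10.27, 10.77 and 10.60, and 10.03 and 10.24 at these weeks. The NNK arrays lay below the untreated ones at week 3, and both groups were highest at week 9. Array 1 of NNK week 12 lay among the untreated arrays. The untreated arrays of week 0 had 9.30 and 9.33, below all 8 NNK arrays. Of the 16, 2 rose, all 16 had a trend above 0 and 15 had an unadjusted p under 0.05, against 6.18% of all genes, with a median of 1.11 in NNK-treated and 0.03 in untreated lungs. Atf3, a stress-induced repressor, had 8.89 and 8.26 at NNK week 3, 8.93 and 10.35 at week 6, 11.18 and 11.63 at week 9, and 10.08 and 11.38 at week 12. Untreated lungs had 10.23 and 10.90, 8.63 and 9.89, 10.94 and 10.45, and 9.04 and 9.78. The NNK arrays lay below the untreated ones at week 3 and above them at weeks 9 and 12. The trend of 2.47 ± 0.50 was the largest rise measured (adjusted p = 0.0436 by limma), and it did not pass in 12 of the 18 fits that each left out 1 array, with an adjusted p up to 0.297 and a trend between 1.89 and 3.06.

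Fosb, a partner of Jun in the AP-1 factor, had 8.37 and 7.63 at NNK week 3, 7.75 and 8.47 at week 6, 9.997 and 10.37 at week 9, and 8.76 and 10.27 at week 12, against 8.24 to 9.66 in the untreated arrays of these weeks. It rose by 1.98 ± 0.41 (adjusted p = 0.0459 by limma), a call lost in 14 of the 18 fits. Nr4a1, an orphan nuclear receptor, peaked at week 9 with 11.69 and 12.16, but untreated lungs had 11.94 and 11.87 there. Its trend of 1.91 did not pass (adjusted p = 0.0502 by limma). The 2 arrays of a week differed by over 1 unit for Atf3 at weeks 6 and 12, for Fosb at week 12 and for Nr4a1 at week 12.

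Cebpd, a transcription factor of acute responses, and Adamts1, a secreted metalloprotease, were also lowest at week 3 and highest at week 9 in NNK-treated lungs. Cebpd had 8.14 and 8.24 at NNK week 3 and 9.69 and 9.58 at week 9 (trend 1.09 ± 0.20, adjusted p = 0.0245 by limma). Adamts1 had 9.78 and 9.96 at week 3 and 11.42 and 11.69 at week 9 (trend 1.10 ± 0.20, adjusted p = 0.0274 by limma). The calls of Cebpd and Adamts1 were lost in 5 and 6 of 16 alternative settings. Untreated lungs reached 9.61 and 9.57 for Cebpd and 11.54 and 11.21 for Adamts1 at week 9, so both groups were high there. Of 15 genes that read out the MAPK pathway, 2 rose, against 0.508% of all genes. They were the phosphatases Dusp6 (0.72) and Dusp4 (0.61), and both were set aside. The call of Dusp4 was lost in 7 of 16 alternative settings and that of Dusp6 in 2. Of 13 heat shock genes, 0 passed by limma and 4 had a trend above 0 with an unadjusted p under 0.05, against 6.18% of all genes. The chaperone gene Hspa1a among them had a trend of 1.49 in NNK-treated and -1.66 in untreated lungs (adjusted p = 0.142 and 0.126 by limma).

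**Figure D3:**
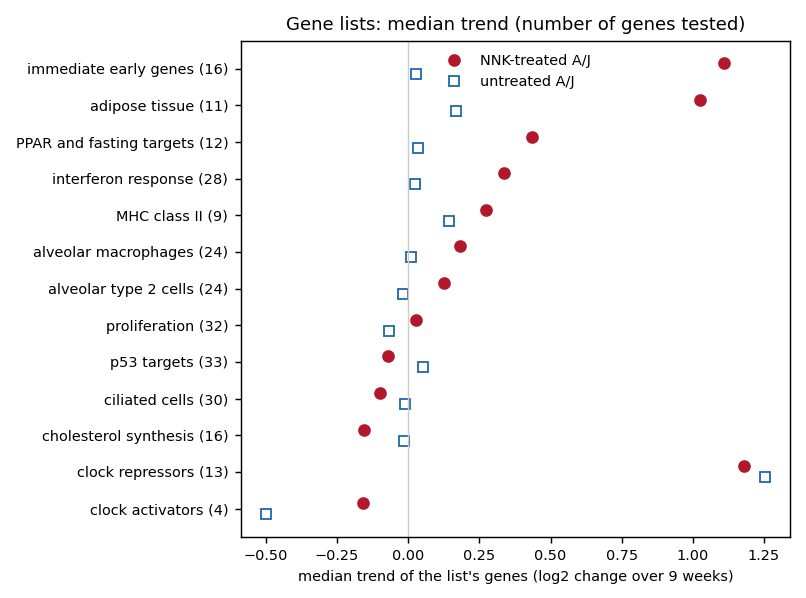
Median trend of each gene list, as log2 change over 9 weeks, in NNK-treated A/J (red circles) and untreated A/J (blue squares). The number of genes tested stands after each name. The list labelled clock repressors, which holds output and repressor genes of the clock, has high medians in both groups (1.18 and 1.26). The list labelled clock activators holds Arntl, Clock, Rora and Nfil3. The medians of the immediate early and adipose genes are above 1 in NNK-treated lungs and at 0.03 and 0.17 in untreated lungs.

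Interferon-induced genes had mostly positive trends in NNK-treated lungs. Of 28 tested, 2 rose, Oas2 and Cxcl9, 27 had a trend above 0 and 17 had an unadjusted p under 0.05, against 6.18% of all genes. The median was 0.34 in NNK-treated and 0.02 in untreated lungs. The list mean was 9.48 and 9.51 at NNK week 3, 9.78 and 9.56 at week 6, 9.86 and 9.76 at week 9, and 10.03 and 9.76 at week 12, against 9.31 to 9.64 in the 10 untreated A/J arrays. Because interferon acts through a response element, the promoter windows were searched for its core, the letters GAAA followed after any 2 bases by GAAA again, on both strands. They were found in 13 of 21 members with a window (61.9%), against 3.61% of 11825 genes, and Cxcl9 had no match in its window. The windows of Oas3, with a match on the gene's strand, and Irgm1, with 2 overlapping matches, are printed as above with the matched letters in capitals.
Oas3, chr5:120777610-120777909, minus strand: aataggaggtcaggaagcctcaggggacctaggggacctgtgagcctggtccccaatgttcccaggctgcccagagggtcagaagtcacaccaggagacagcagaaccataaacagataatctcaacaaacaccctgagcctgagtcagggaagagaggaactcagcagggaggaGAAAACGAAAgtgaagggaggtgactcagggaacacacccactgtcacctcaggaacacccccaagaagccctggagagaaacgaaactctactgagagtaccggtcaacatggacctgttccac
Irgm1, chr11:48871371-48871670, minus strand: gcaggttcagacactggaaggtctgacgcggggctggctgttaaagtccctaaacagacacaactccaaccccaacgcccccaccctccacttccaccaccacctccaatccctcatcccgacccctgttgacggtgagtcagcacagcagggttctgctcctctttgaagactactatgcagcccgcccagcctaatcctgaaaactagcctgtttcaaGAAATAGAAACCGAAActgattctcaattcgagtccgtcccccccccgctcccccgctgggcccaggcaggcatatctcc

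Oas2, an enzyme that senses double-stranded RNA, had 8.54 and 8.46 at NNK week 3, 9.22 and 8.74 at week 6, 9.19 and 9.29 at week 9, and 9.59 and 9.31 at week 12. The 10 untreated A/J arrays lay between 8.45 and 8.65. The NNK week 3 arrays were within the untreated range and all 6 later ones above it, as was the case for 0.475% of all genes. The trend was 0.93 ± 0.12 (adjusted p = 0.00298 by limma), beside 0.00 in untreated lungs, and it passed in all 18 fits that each left out 1 array. Its call was lost in 2 of 16 alternative settings, with week as a number in the 8 NNK arrays and with weeks 6 to 12 alone.

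Cxcl9, a chemokine that draws T cells and is induced by interferon gamma, had 7.97 and 8.65 at NNK week 3, 8.18 and 7.95 at week 6, 9.63 and 9.11 at week 9, and 9.54 and 9.73 at week 12. Untreated lungs had 8.87 and 8.02, 8.02 and 8.01, 9.28 and 8.95, and 7.93 and 8.35. The groups overlapped at week 9 and were apart at week 12. The trend was 1.58 ± 0.28 (adjusted p = 0.0231 by limma), beside 0.06 in untreated lungs, and its call was lost in 4 of 15 alternative settings. Among the members that did not pass were Irgm1, an interferon-induced GTPase (0.59, adjusted p = 0.209), Oas3 (0.42, adjusted p = 0.226) and Psmb8, an immunoproteasome subunit (0.55, adjusted p = 0.118). The antiviral gene Rsad2 was highest at week 6, with 10.65 in array 1, the array that stood apart, and 8.96 in array 2.

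Most genes of antigen presentation had trends above 0, as 52.9% of all genes did, and 0 of them passed by limma. All 9 MHC class II genes tested had a trend above 0, with a median of 0.27 in NNK-treated and 0.14 in untreated lungs, 3 having an unadjusted p under 0.05, against 6.18% of all genes. Ciita, their master activator, had a trend of 0.69 (adjusted p = 0.0974), with 10.17 and 9.51 at NNK week 12 against 9.36 and 9.76 in untreated lungs. Of the 11 MHC class I and peptide loading genes, 10 had a trend above 0 and Psmb10, an immunoproteasome subunit gene, had -0.12. Their median was 0.21 in NNK-treated and 0.14 in untreated lungs, with 2 at an unadjusted p under 0.05. Of 24 T and NK cell genes 22 had a trend above 0, but 0 reached an unadjusted p under 0.05.

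Meg3, a maternally expressed long non-coding RNA of an imprinted cluster, was highest at the last week. It had 8.68 and 8.83 at NNK week 3, 8.71 and 8.54 at week 6, 9.15 and 9.10 at week 9, and 9.76 and 9.83 at week 12. The 10 untreated A/J arrays lay between 8.36 and 8.98. The NNK arrays were within that range at weeks 3 and 6 and above it at weeks 9 and 12. At week 12 both arrays lay above all 10 untreated arrays in 3.97% of all genes. The trend was 1.09 ± 0.14 (adjusted p = 0.00208 by limma), beside 0.06 in untreated lungs. It passed in all 18 fits that left out 1 array and with weeks 6 to 12 alone (adjusted p = 0.0171 by limma). Its call was lost in 2 of 16 alternative settings, with week as a number in the 8 NNK arrays and with weeks 3 to 9 alone.

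**Figure D4:**
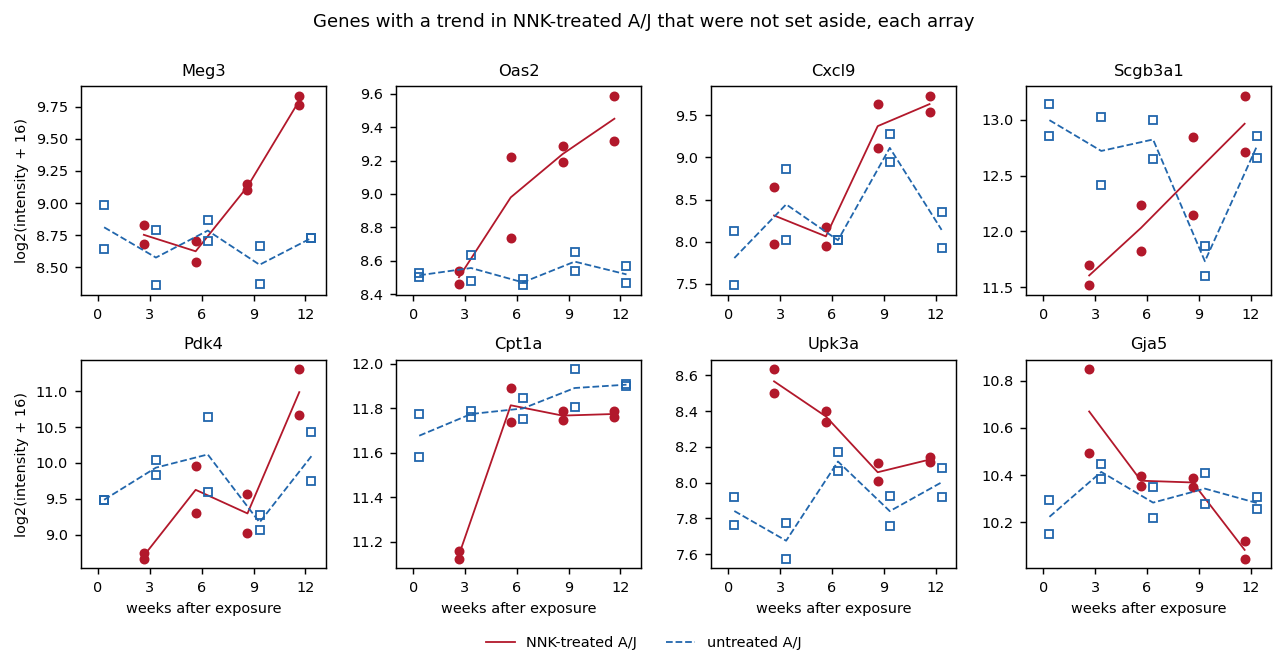
Levels of 8 genes with a trend in NNK-treated A/J that were not set aside, as log2(intensity + 16), against weeks after exposure. Symbols and lines are 1 array each and weekly means for NNK-treated A/J (red circles, solid) and untreated A/J (blue squares, dashed). Meg3 and Oas2 leave the untreated range upward, Cpt1a and Pdk4 begin below it at week 3, and Upk3a begins above it and ends within it.

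In the airway epithelium, 17 club cell genes were tested, of which 1 rose and 1 fell, against 0.508% and 0.140% of all genes, and the list's median was -0.03 in both groups. Scgb3a1, a secretoglobin of airway secretory cells, had 11.52 and 11.70 at NNK week 3, 12.23 and 11.83 at week 6, 12.15 and 12.85 at week 9, and 12.72 and 13.21 at week 12. Untreated lungs had 12.41 and 13.03, 12.99 and 12.65, 11.87 and 11.60, and 12.66 and 12.86. The NNK arrays lay below the untreated ones at weeks 3 and 6, above them at week 9 and among them at week 12. The trend was 1.36 ± 0.24 (adjusted p = 0.0223 by limma), beside -0.29 in untreated lungs, and its call was lost in 5 of 16 alternative settings.

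Upk3a, a uroplakin that marks a subset of club cells, had 8.63 and 8.50 at NNK week 3, 8.34 and 8.40 at week 6, 8.01 and 8.11 at week 9, and 8.14 and 8.12 at week 12. The 10 untreated arrays lay between 7.57 and 8.17. The NNK arrays of weeks 3 and 6 were above all of them, and those of weeks 9 and 12 were within their range. The trend was -0.49 ± 0.09 (adjusted p = 0.0332 by limma), beside 0.21 in untreated lungs.

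Of the other 4 falls not set aside, Cldn10, Gja5 and Thyn1 began above the untreated range and Gngt2 ended below it. In this order, their calls were lost in 9, 5, 7 and 4 of 16 alternative settings. Cldn10, a claudin of tight junctions, had 10.53 and 10.69 at NNK week 3 and 9.52 to 10.18 later, against 9.80 to 10.30 in all 10 untreated arrays (trend -0.77 ± 0.16, adjusted p = 0.0464 by limma). Gja5, a connexin of arterial endothelium, had 10.49 and 10.85 at week 3 and 10.05 and 10.12 at week 12, outside the untreated range of 10.15 to 10.45 at both ends (trend -0.53 ± 0.10, adjusted p = 0.0287). Thyn1 had 9.11 to 9.44 in the 6 arrays of weeks 3 to 9, all above the untreated range of 8.73 to 9.05, and 8.93 and 8.95 at week 12 (trend -0.42 ± 0.08, adjusted p = 0.0397). Gngt2, a G protein gamma subunit, had 10.64 and 10.49 at week 3 and 9.99 and 10.01 at week 12, with untreated levels between 10.05 and 10.65 (trend -0.58 ± 0.11, adjusted p = 0.0332). The chloride channel Cftr (-0.50), the folate enzyme Mthfd1 (-0.28) and the aldo-keto reductase Akr1c14 (-0.54) came next and did not pass (adjusted p = 0.0532, 0.0546 and 0.0587).

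Of the 22 rises not set aside, 19 had their lowest weekly mean at week 3, and 21 lay below untreated lungs at week 3 while 19 lay above them at week 12. These counts describe genes chosen for a trend that untreated lungs did not share, which favours such an order. The shares over all genes were not counted, so the counts are only a description.

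Targets of p53, the factor that DNA damage activates, were examined because NNK damages DNA. Of 33 tested, 0 passed by limma, 21 had a trend below 0, against 47.1% of all genes, and 9 of these an unadjusted p under 0.05, against 4.96%. Of the 12 with a trend above 0, 5 had an unadjusted p under 0.05, against 6.18%. The median was -0.07 in NNK-treated and 0.05 in untreated lungs. Ccng1, a cyclin that p53 induces, had 12.43 and 12.55 at NNK week 3, 12.58 and 12.59 at week 6, 12.18 and 12.29 at week 9, and 12.26 and 12.22 at week 12. Every one of these arrays lay above the untreated range of 11.85 to 12.07, and the trend of -0.33 did not pass (adjusted p = 0.107 by limma). Psrc1 had 8.75 and 8.91 at week 3 and 8.50 and 8.63 at week 12, against 7.49 to 8.21 in untreated lungs (trend -0.40, adjusted p = 0.291). The 5 members with a trend above 0 and an unadjusted p under 0.05 included Btg2 and Plk2, which also respond as early genes and peaked at week 9 in both groups.

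Markers of ciliated cells, type 2 cells, sterol synthesis and proliferation had medians nearer 0 than the interferon list. Of 30 ciliated cell genes, 24 had a trend below 0, with a median of -0.10 in NNK-treated and -0.01 in untreated lungs. By limma 0 of them passed, 6 having an unadjusted p under 0.05, against 4.96% of all genes lower at that p. Of 24 alveolar type 2 genes, 18 had a trend above 0, against 52.9% of all genes, with a median of 0.13 and -0.02. At an unadjusted p under 0.05 there were 5, against 6.18% of all genes, and 0 passed by limma. Sftpd, a surfactant protein, had 12.06 and 11.94 at NNK week 3 and 12.36 and 12.39 at week 12, against 11.86 to 12.09 in untreated lungs (trend 0.34, adjusted p = 0.189). Of 16 cholesterol synthesis genes, 14 had a trend below 0, against 47.1% of all genes, with a median of -0.16 and -0.01, 3 at an unadjusted p under 0.05 (4.96% of all genes) and 0 passing. Of 24 alveolar macrophage genes 1 rose, Pparg, against 0.508% of all genes, and the median was 0.18 in NNK-treated and 0.01 in untreated lungs. This list shares 3 genes with the adipose list (Cidec, Fabp4 and Lpl), and the part of adipose tissue in it was not tested. The 32 proliferation genes had a median of 0.03 and -0.07, with 0 passing and 1 at an unadjusted p under 0.05.

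A linear trend misses genes that peak in between, and the F test over the 4 NNK weeks by limma found 95 genes (0.635%). Their highest weekly mean was at week 3 in 18 genes, week 6 in 10, week 9 in 44 and week 12 in 23, and 22.8, 23.9, 28.1 and 25.3% of all genes were highest at these weeks. Mmp12, the macrophage elastase, had 10.52 and 10.64 at NNK week 6 and 8.78 to 9.50 at the other NNK weeks, against 8.97 to 9.82 in untreated lungs (adjusted p = 0.00861 by the F test). Only the week 6 arrays left the untreated range upward. Array 1 of week 6 is the one that stood apart in 4 gene lists, and its part in this F test was not tested.

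Eda2r, an ectodysplasin receptor induced by p53, had 8.20 and 8.07 at NNK week 3, 8.64 and 8.89 at week 6, 8.53 and 8.40 at week 9, and 8.01 and 7.94 at week 12, against 7.61 to 7.99 in the 10 untreated arrays (adjusted p = 0.0241 by the F test in limma). It was above the untreated range through week 9 and at its upper edge at week 12. Mybl1, named after its values were seen, had 7.79 and 7.92, 8.54 and 8.16, 7.99 and 7.97, and 7.49 and 7.53 at weeks 3, 6, 9 and 12, against 7.23 to 7.66 in untreated lungs (adjusted p = 0.0118 by the F test in limma). Olr1, a receptor for oxidized lipoprotein on macrophages, peaked at week 9 with 9.76 and 9.62, against 9.37 and 9.37 in untreated lungs (adjusted p = 0.0291).

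**Figure D5:**
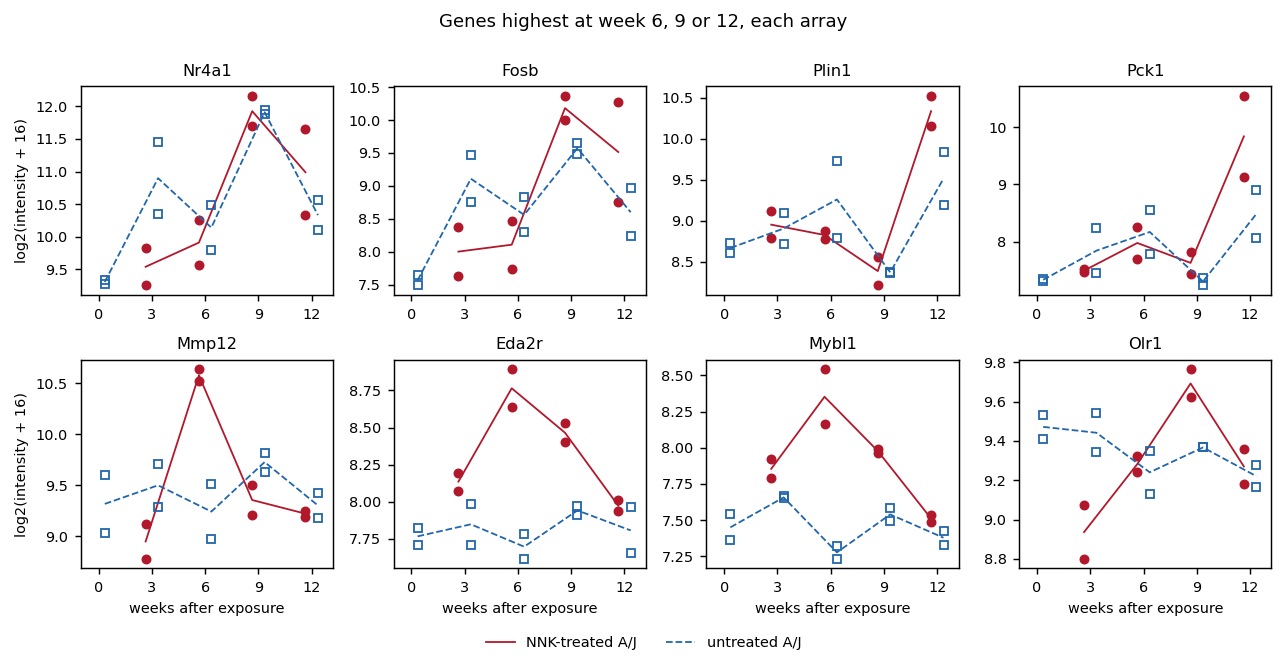
Levels of 8 genes that were highest at week 6, 9 or 12 in NNK-treated A/J, as log2(intensity + 16), against weeks after exposure, with symbols and lines for NNK-treated (red circles, solid) and untreated A/J (blue squares, dashed) arrays and weekly means. Mmp12, Eda2r and Mybl1 are highest at week 6 in NNK-treated lungs, Plin1 and Pck1 at week 12, and Nr4a1 is about as high in untreated lungs at week 9.

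The C3H lungs with the same NNK treatment showed less change at the clock genes. The strains were compared in a fit of all 36 arrays, which shares each gene's variance between them. An earlier account found a larger residual spread in A/J, so the p-values of this fit may be too small for A/J. It called 484 NNK trends in A/J, against 97 in the fit of A/J arrays. Between the A/J and C3H trends after NNK, limma called a difference in 43 genes (0.288%). Of these, 29 were higher in A/J (0.194%) and 14 lower (0.0936%). Of the 13 clock output and repressor genes, 7 were among the higher ones. Their median trend was 1.18 in A/J and 0.22 in C3H, and their list mean at NNK week 3 was 9.48 and 9.64 in A/J, against 10.60 and 10.68 in C3H. At weeks 6 to 12 it was 10.49 to 10.92 in A/J and 10.64 to 10.95 in C3H, so the strains differed at week 3 and overlapped later. In untreated lungs at week 3 it was 9.28 and 9.48 in A/J and 10.68 and 10.72 in C3H. The strains therefore differed at week 3 without NNK too.

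Of the 27 genes not set aside, 7 differed from C3H in trend. They were chosen for their trend in A/J, so the count favours a difference and is given as a description. Meg3 had a trend of 1.09 in A/J and -0.39 in C3H (difference 1.48, adjusted p = 0.00767 by limma), Pdk4 1.95 and -0.31 (2.27, adjusted p = 0.011), Cxcl9 1.58 and -0.03 (1.61, adjusted p = 0.0381), and Gja5 -0.53 and 0.44 (-0.97, adjusted p = 0.00432). The others were Angptl4 and Tcim with higher trends in A/J and, named after its values were seen, the kinase gene Stk39 (0.57, adjusted p = 0.00857). Oas2 had trends of 0.93 and 0.53, and a difference was not detected (0.40, adjusted p = 0.396). The count of 43 moved with single arrays of both strains. It was 12 without array 1 and 267 without array 2 of C3H NNK week 3, 13 without array 2 of C3H NNK week 12, 27 without array 1 of A/J NNK week 12, 85 without array 1 of A/J NNK week 6, and 79 without either untreated A/J week 3 array.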

How the data were processed

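The deposited intensities are linear and given for each probe set of each array. Per the submitters' processing notes, the authors used PLIER and Affymetrix Expression Console. Their versions, settings and build are not given in the sources used here. The scale between arrays is known only from the values. Intensities were turned to log2(intensity + 16), which understates changes of dim genes, and quantile-normalized over 36 arrays. Of 35556 probe sets, 21789 had 1 gene symbol, 1621 several and 12146 none in the probe table. A gene was represented by its brightest probe set on average (19938 genes), and those below the 25th percentile of mean level were dropped, leaving 14953.

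The 18 A/J arrays were fitted with limma 3.58.1 in R 4.3.3 as 9 group means with 9 residual degrees of freedom, moderated variances and Benjamini-Hochberg adjustment over all genes at 0.05. The trend weighted weeks 3, 6, 9 and 12 by -0.9, -0.3, 0.3 and 0.9. The comparison with C3H used all 36 arrays and 18 degrees of freedom. Only A/J arrays entered the other fits because an earlier account of these data found a larger residual spread in A/J. The code was tested on simulated arrays. Precision is limited by the number of arrays, since an array has no read depth.

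The arrays, gene lists, tests and naming rule were chosen with earlier results of these data known. The rule named the 12 largest rises and falls not set aside (filled up by smallest p), the 4 largest set aside in each direction, the 5 smallest p of each difference in each direction, 4 genes for each peak week of the F test, 4 members of each list described and 16 genes of the earlier account. The 45 lists were described by counts and medians with no test, and the lists not described in the text had at most 1 called gene each. Promoters came from RefSeq, on GRCm38.p6. Alternatives changed the normalization, pseudocount, filter, variance model, arrays, weeks and set-aside rule, used the array number as a block, and left out each array in turn. Weeks 6 to 12 alone, weeks 3 to 9 alone and a fit without 4 untreated arrays were added after seeing the data.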

Additional observations from a re-analysis of the deposited data

Results flagged for a closer look

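The trends of 2 genes differed between NNK-treated and untreated A/J lungs by limma. They were the skin keratins Krt1 (difference 1.80) and Krt10 (1.44), each with an adjusted p of 0.0464, and both were high in the untreated week 6 arrays, where Krt1 had 14.37 and 14.77 against 9.22 and 9.20 at NNK week 6.

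The trends after NNK differed between A/J and C3H, by limma in the fit of 36 arrays, for 22 further genes named by the rule. Among clock genes the differences, A/J minus C3H, were 1.61 for Per1, 1.47 for Hlf, 1.39 for Per2, 1.25 for Dbp, 1.16 for Bhlhe41, 0.96 for Per3 and -1.37 for Arntl. At week 3 the mean over the clock output and repressor genes was lower in A/J than in C3H without NNK too. Wee1, a cell cycle kinase gene under clock control in liver, differed by 0.91, the glycolytic regulator Pfkfb3 by 0.63 and Zbtb16 by 2.13. Of the genes not set aside, Pdk4 differed by 2.27, Cxcl9 by 1.61, Angptl4 by 1.52, Meg3 by 1.48, Tcim by 1.20 and Gja5 by -0.97. Lower trends in A/J were also found for the kinase anchors Akap12 (-0.69) and Akap5 (-0.55), complement C5 (Hc, -0.56), Ablim3 (-0.51), the transcription cofactor Eya1 (-0.45) and the DNA repair gene Rad50 (-0.44). The A/J trend of Hc was -0.27 after NNK and -0.53 in untreated lungs, and its C3H trend after NNK was 0.29.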

How the results depend on the processing

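The count of 97 genes with an NNK trend was 51 with no filter on dim genes, 180 with a filter at the 50th percentile, 166 with trended robust variances, 552 with array weights, 484 in the fit of all 36 arrays, 1 with week as a number in 8 arrays (0 shared) and 2 with weeks 6 to 12 alone. The 27 genes not set aside became 9, 74, 59, 265 and 230 under the first 5 of these, 17 with untreated weeks 0 to 12 in the rule and 2 with weeks 6 to 12 alone. The 95 genes of the F test became 55, 164, 143, 1034 and 787 under the same 5. The 92 untreated trends became 17 with array weights, 311 with 36 arrays, 1710 over weeks 0 to 12, 4 over weeks 6 to 12 and 236 without 4 untreated arrays. The 2 genes whose NNK trend differed from the untreated one became 5 with 36 arrays, 4 with weeks 6 to 12, 1 with the 50th percentile or robust variances, and 0 without normalization, with a pseudocount of 1, no filter, array weights, weeks 3 to 9, without untreated weeks 0 and 6, or without 4 untreated arrays. The 43 differences from C3H became 72 with the 50th percentile and 71 with array weights. The fits with fewer or more genes tested, or other arrays, differ by construction, and the cause of the other shifts was not tested.

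With 1 array left out at a time, the counts ran from 24 to 198 for NNK trends, 4 to 93 for those not set aside, 19 to 235 for untreated trends, 0 to 20 for their difference, 15 to 249 for the F test and 12 to 267 for the difference from C3H. The lowest and highest came without array 1 of NNK week 3 and array 1 of untreated week 3 for NNK trends, and without array 2 of untreated week 12 and array 2 of untreated week 3 for untreated trends. The F test was lowest without array 1 of NNK week 3 and highest without array 2 of NNK week 6. Meg3, Oas2, Per1, Hlf, Bhlhe41, Dbp and Arntl passed in all 18 fits. Over weeks 6 to 12 alone the sign turned for Angptl4 (-0.085), Cpt1a (-0.059), Wee1 (-0.026), Per3 (-0.029) and Arntl (0.072).

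Of 36 pairs of A/J groups, 13 had deviations correlated above 0.1 (range -0.25 to 0.272). Among the 4 NNK groups it was 3 of 6 pairs (range -0.0095 to 0.233). These counts had no reference to compare with, so they do not decide if the array numbers pair the samples. With the array number as a block, 109 genes had an NNK trend, 39 of them not set aside, 122 passed the F test, 0 differed from the untreated trend and 47 differed from C3H.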
